A study of Mus musculus with 16 samples.

Results

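The genes described are 10 that mark macrophages or carry their Fc receptors: Fcgr1, Fcgr3, Fcgr4, Fcgr2b, Mertk, Cd14, Lyz2, Cd68, Aif1 and Cx3cr1. They were chosen by gene symbol in the deposited expression table, and all 10 were found, with 17 probes, among 37017 gene names on the array, of which 30587 were tested. RNA of whole orthotopic pancreatic tumours from female C57BL/6 mice was measured in 3 groups: 5 tumours at 10 days of ADH-503, 5 tumours at 48 h of ADH-503, and 6 tumours from vehicle-treated animals, whose labels give no time. ADH-503, named LA1 in the sample titles, is a small molecule that activates CD11b, the alpha chain of an integrin of macrophages, monocytes and neutrophils. The dose, the tumour cells implanted and the age of the mice are not given in the sources used here. Whether the samples of a group are separate animals is not labelled, and p-values here cover only sample-to-sample spread, which may be technical in part.

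Fc gamma receptors bind the constant part of IgG and let a phagocyte take up or kill what antibody has coated. In the mouse, Fcgr1, Fcgr3 and Fcgr4 encode activating receptors that signal through the common gamma chain, and Fcgr2b encodes the inhibitory receptor, which is shared with B cells. Mertk is a receptor tyrosine kinase for the uptake of apoptotic cells, Cd14 a co-receptor that hands bacterial lipopolysaccharide to the TLR4 complex, Lyz2 the lysozyme of myeloid cells, Cd68 a glycoprotein of macrophage lysosomes, Aif1 the actin-binding protein IBA1, and Cx3cr1 the receptor for fractalkine. In pancreatic tumours, macrophages are among the most abundant immune cells.

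All 17 probes were well above background on all 16 arrays and none was saturated. A list of 19 other macrophage genes, among them Adgre1, Csf1r and the C1q chains, was also well above background on every array. So were lists of 6 NK cell, 6 T cell, 9 granulocyte and 9 acinar cell markers, so this does not single out macrophages. Levels are log2 processed signal relative to the 75th percentile of the array, and each gene is represented by its brightest probe unless another is named. The 16 arrays came from 2 slides with a scan session each. Slide 1 held 3 of the 10 day, 4 of the 48 h and 1 of the vehicle arrays, and slide 2 held 2, 1 and 5. Between 74.9% and 81.2% of probes were well above background on an array, and arrays correlated at r = 0.942 to 0.976 across genes, which are not independent replicates. Vehicle replicate 2 and 48 h replicate 5 carry the same ID number in their titles, and the description of the vehicle sample gives another.

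The probes are the stretches of transcript whose amount each value reports, and 5 of them, picked from the genes described below without Cd14, are shown. They are printed 5′ to 3′ as the scanner files give them, whole and so without capitals, with positions on mouse build mm9, all on the minus strand. Their place in exons was not derived, since the annotation at hand is of another build.
Fcgr1, chr3:96088462-96088521: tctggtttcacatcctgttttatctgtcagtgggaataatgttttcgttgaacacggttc
Fcgr3, chr1:172984129-172984188: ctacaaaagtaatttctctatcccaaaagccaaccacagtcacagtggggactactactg
Fcgr2b, chr1:172895833-172895892: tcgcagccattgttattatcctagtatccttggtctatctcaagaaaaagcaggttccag
Lyz2, chr10:116719175-116719234: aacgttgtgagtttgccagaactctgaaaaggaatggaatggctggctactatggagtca
Cd68, chr11:69478314-69478373: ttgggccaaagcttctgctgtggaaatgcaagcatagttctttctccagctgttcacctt
Fcgr2b and Fcgr3 encode receptors with closely related extracellular parts, and on chr1 the Fcgr4 probe lies between their probes. The longest run of bases that a Fcgr2b probe shared with a Fcgr3 probe was 7. Probes were compared only with each other, not with the other gene's transcript. That run therefore cannot show whether a probe bound the other transcript, and cross-hybridisation was not measured.

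None of the 10 genes differed between groups past the threshold. In limma over all 30587 genes, with Benjamini-Hochberg adjustment, 0 of 10 passed an adjusted p of 0.05 at 10 days against vehicle, beside 0% of all genes. The count was also 0 of 10 at 48 h against vehicle, beside 0%, and 0 of 10 at 10 days against 48 h, beside 0%. At an unadjusted p under 0.05 the counts were again 0 of 10 in each comparison, against backgrounds of 3.53% (1081 genes), 2.56% (783 genes) and 3.47% (1062 genes). The median log2 fold change of the 10 genes was 0.0059 at 10 days against vehicle, 0.069 at 48 h against vehicle and -0.066 at 10 days against 48 h, where the medians of all genes tested were -0.0086, -0.013 and 0.0049. Both comparisons with vehicle share the same 6 vehicle arrays. In bulk RNA, fewer cells of a type and less RNA per cell cannot be told apart.

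The 95% intervals are those of the brightest probes in a fit without the slide, which was unevenly spread over the groups. At 10 days against vehicle they ran from 0.62-fold (Cd14) to 1.36-fold (Lyz2), at 48 h against vehicle from 0.741-fold (Fcgr1) to 1.38-fold (Lyz2), and at 10 days against 48 h from 0.593-fold (Cd14) to 1.36-fold (Lyz2). The narrowest were those of Fcgr2b, 0.956 to 1.24-fold at 10 days and 0.969 to 1.25-fold at 48 h against vehicle. For Cd14 at 10 days against vehicle, the estimate within slide 2 (-0.74 on the log2 scale) lay outside its interval. So did those of Fcgr1 on both slides (-0.58 on slide 1, 0.36 on slide 2) and of Lyz2 on slide 1 (-0.4445). At 10 days against 48 h, those of Fcgr4 (0.175) and Cx3cr1 (0.21) within slide 2 lay outside too. Slide 1 held 1 vehicle array and slide 2 held 1 array at 48 h. A p that misses the threshold does not show that the groups were alike. The 48 h mean was the highest of the 3 for 9 of the 10 genes and the lowest for Mertk. That count was 8 with the slide as a block, 6 in the deposited table, 4 within slide 1, 3 within slide 2 and 3 after normexp and quantile normalization. At 48 h against vehicle the median of the 10 genes was -0.0051 within slide 1 and 0.0052 within slide 2, with 5 of 10 genes higher on each, and 0.15 with the slide as a block. For none of the 10 genes did any pair of groups lack overlap, beside 0.213% of all genes tested at 10 days against vehicle, 0.141% at 48 h against vehicle and 0.503% at 10 days against 48 h.

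**Figure D1:**
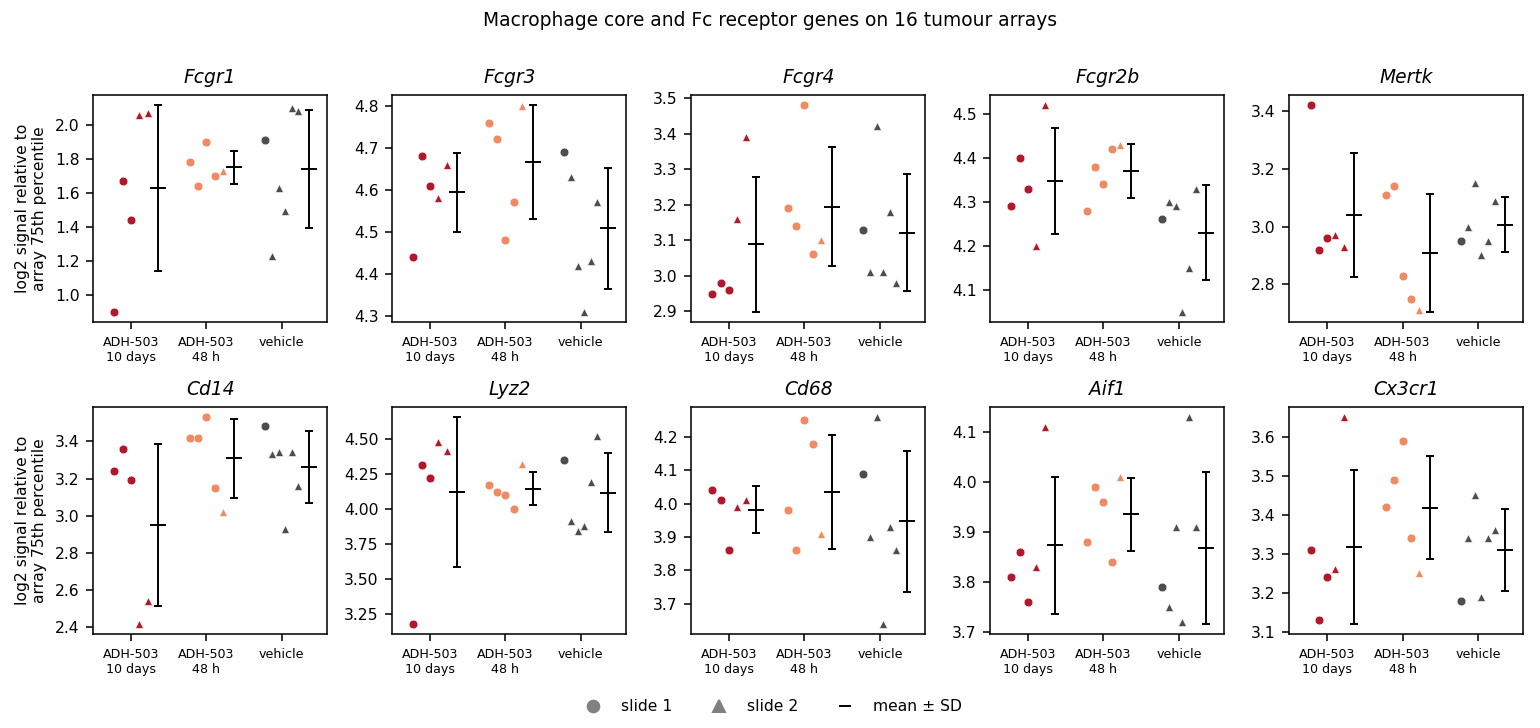
Log2 signal relative to the array's 75th percentile (y axis) of each gene's brightest probe at 10 days of ADH-503, 48 h of ADH-503 and vehicle, 1 point per array, circles for slide 1 and triangles for slide 2, with mean ± SD. The groups overlap for every gene, and the 10 day arrays hold the low values of Lyz2 (3.18), Fcgr1 (0.90) and Cd14 (2.42 and 2.54).

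**Figure D2:**
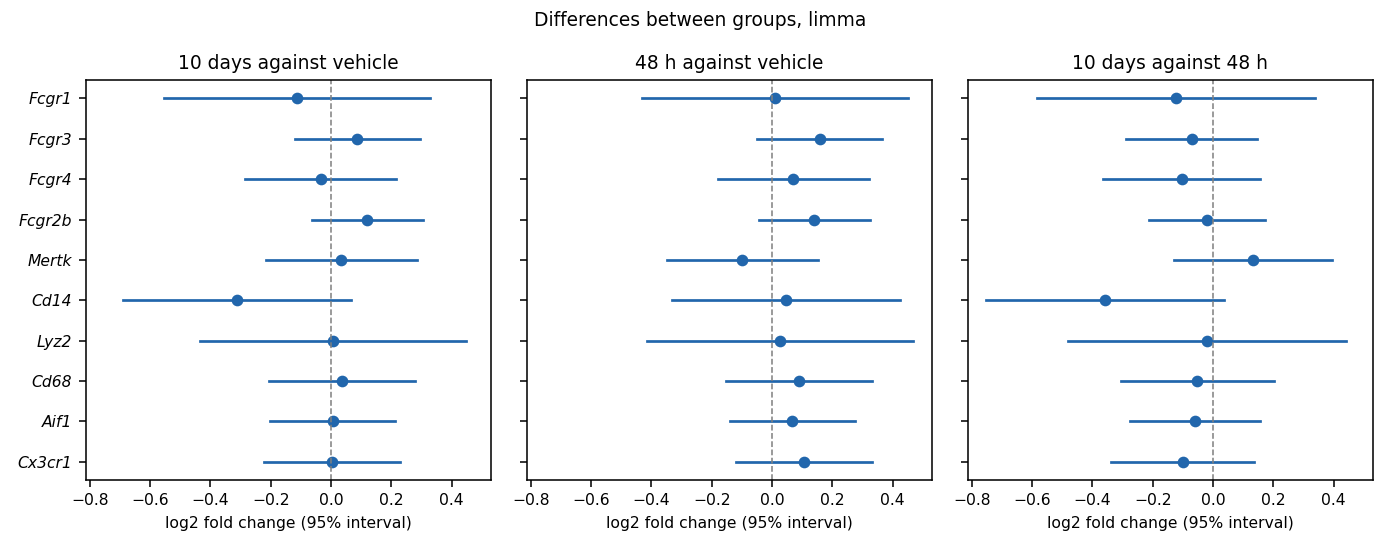
Log2 fold change of each gene (point) with its 95% interval (line) from limma, for 10 days against vehicle, 48 h against vehicle and 10 days against 48 h. All 30 intervals include 0, and Cd14 lies farthest from it, at -0.31 and -0.36 in both comparisons of the 10 day arrays.

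Of the activating receptors, Fcgr1, the high-affinity IgG receptor, varied most between arrays. It stood at 0.90, 1.67, 1.44, 2.06 and 2.07 in the 10 day tumours and at 1.78, 1.64, 1.90, 1.70 and 1.73 in the 48 h tumours. In vehicle tumours its lowest, median and highest values were 1.23, 1.77 and 2.10. The 48 h values lay inside the range of both other groups, and the 10 day group held its lowest array, replicate 1. The log2 fold change was -0.11 ± 0.21 (SE) at 10 days and 0.0087 ± 0.21 at 48 h against vehicle, both with an adjusted p of 1.0 in limma, and the exact permutation p was 0.649 and 0.963. Within slide 1, with 1 vehicle array, the 10 day difference from vehicle was -0.58, and within slide 2 it was 0.36.

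Fcgr3, the low-affinity activating receptor that NK cells and neutrophils also carry, stood at 4.44, 4.68, 4.61, 4.58 and 4.66 at 10 days and at 4.76, 4.72, 4.48, 4.57 and 4.80 at 48 h. Vehicle tumours ran from 4.31 to 4.69 with a median of 4.5. Its 48 h difference from vehicle, 0.16 ± 0.097 (SE, limma adjusted p = 1.0), was the largest positive one among the 10 genes. The exact 2-sided permutation p was 0.0931, and 4 of 5 arrays at 48 h lay above the vehicle mean. The second Fcgr3 probe gave 0.23 ± 0.12 in the same comparison, with all 5 arrays above the vehicle mean and an exact permutation p of 0.026. Its vehicle group held an array far below the rest, replicate 4 at 2.34, where the next was 2.90. Within slides the representative probe gave -0.054 on slide 1 and 0.33 on slide 2, so the direction was not shared by both slides.

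Fcgr4, the activating receptor of mouse monocytes, macrophages and neutrophils, averaged 3.09 ± 0.19 at 10 days (SD, n = 5), 3.19 ± 0.17 at 48 h (n = 5) and 3.12 ± 0.17 in vehicle tumours (n = 6). Each group had 1 array that stood above its others, at 3.39 at 10 days, 3.48 at 48 h and 3.42 in vehicle tumours. The differences from vehicle were -0.034 ± 0.12 at 10 days and 0.07 ± 0.12 at 48 h (SE, limma adjusted p = 1.0 for both).

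Fcgr2b, the inhibitory receptor, had the smallest unadjusted permutation p among the 10 genes. It stood at 4.29, 4.40, 4.33, 4.2 and 4.52 at 10 days and at 4.28, 4.38, 4.34, 4.42 and 4.43 at 48 h. In vehicle tumours it ran from 4.05 to 4.33 with a median of 4.28. All 5 of the 48 h arrays lay above the vehicle mean, but 1 of them lay below the highest vehicle array, so the groups overlapped. The 48 h difference was 0.14 ± 0.087 (SE, 1.1-fold, 95% interval 0.969 to 1.25, limma adjusted p = 1.0), with an exact 2-sided permutation p of 0.0281 before adjustment, 1 of 30 such tests over the 10 genes and 3 comparisons. At 10 days the difference was 0.12 ± 0.087 (SE, exact permutation p = 0.117), with 4 of 5 arrays above the vehicle mean.

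The Fcgr2b probe printed above pointed the same way, with a log2 fold change of 0.23 ± 0.11 at 48 h against vehicle and an unadjusted limma p of 0.0442 (adjusted p = 1.0 over 46088 probes). It was the only member probe under 0.05 of 17 in that comparison, where 2.53% of all probes were. Its values were 3.46, 3.74, 3.55, 3.26 and 3.43 at 10 days, 3.62, 3.63, 3.50, 3.43 and 3.52 at 48 h, and between 3.14 and 3.54 in vehicle tumours. With the slide as a block the difference at 48 h was 0.11, while that of the brighter probe was 0.15, and neither was under 0.05 before adjustment. The highest of the vehicle values on this probe, 3.54, was the only vehicle array on slide 1, the slide that held 4 of the 5 arrays at 48 h. In the authors' deposited values the brighter probe averaged 17.0 ± 0.11 at 10 days, 16.9 ± 0.04 at 48 h and 16.8 ± 0.13 in vehicle tumours (log2, SD).

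Mertk stood at 3.42, 2.92, 2.96, 2.97 and 2.93 at 10 days and at 3.11, 3.14, 2.83, 2.75 and 2.71 at 48 h. Vehicle tumours ran from 2.90 to 3.15 with a median of 2.98. Replicate 1 of the 10 day group was the highest of all 16 arrays, and 3 of the 48 h arrays were the lowest. The difference was 0.034 ± 0.12 at 10 days and -0.099 ± 0.12 at 48 h against vehicle, and 0.13 ± 0.12 between 10 days and 48 h (SE, limma adjusted p = 1.0 for all 3). All 5 of the 10 day arrays lay above the 48 h mean, though the groups overlapped. Without 10 day replicate 1 the difference between 10 days and 48 h was 0.038.

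Cd14 had the largest difference of the 10 genes. Its values were 3.24, 3.36, 3.19, 2.42 and 2.54 at 10 days, and 3.42, 3.42, 3.53, 3.15 and 3.02 at 48 h. In vehicle tumours it ran from 2.93 to 3.48 with a median of 3.33. Replicates 4 and 5 of the 10 day group were the lowest of all 16 arrays, while the other 3 lay inside the vehicle range. The difference was -0.31 ± 0.18 at 10 days against vehicle (SE, 0.805-fold, 95% interval 0.62 to 1.05, limma adjusted p = 1.0) and -0.36 ± 0.19 at 10 days against 48 h (limma adjusted p = 1.0). The exact permutation p was 0.167 and 0.159. Leaving out 1 array moved the difference from vehicle between -0.42 (without 10 day replicate 2) and -0.18 (without 10 day replicate 4).

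These 2 low arrays were the only 10 day arrays on slide 2. Within slide 2 the 10 day values of Cd14 lay below all 5 vehicle values and the single 48 h value, with a difference from vehicle of -0.74, while within slide 1 it was -0.21 against the single vehicle array. With the slide as a block the difference was -0.53 with an unadjusted p of 0.00119, and the smallest adjusted p of the 10 genes in that fit was 0.995. The second Cd14 probe also had its 2 lowest values, 1.13 and 1.14, on these arrays, and gave -0.12 ± 0.13 at 10 days against vehicle and -0.20 in the blocked fit. In the authors' deposited table the brighter probe averaged 15.5 ± 0.49 at 10 days, 15.9 ± 0.22 at 48 h and 15.9 ± 0.14 in vehicle tumours. On the same 2 arrays Fcgr1 (2.06 and 2.07) and Lyz2 (4.48 and 4.41) were near the top of their range.

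Neutrophils and some epithelial cells also express Cd14, and their markers are given beside it. Of 9 granulocyte markers, 9 were lower at 10 days than in vehicle (median log2 fold change -0.77, 0 passing, 3 at an unadjusted p under 0.05), and the list mean ran from -1.46 to 0.34 at 10 days, -0.85 to 1.03 at 48 h and -0.59 to 0.99 in vehicle tumours. On the 2 arrays with low Cd14 that mean was -0.59 and -0.52, within the range of the other 10 day arrays. The mean of 8 ductal and tumour epithelium markers was -0.94 and -1.27 on these 2 arrays, below the other 10 day arrays and all vehicle arrays. That of 48 h replicate 4 was lower, at -1.42. All 9 and all 8 markers were well above background on every array, and the part of these cells in the Cd14 values was not tested.

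**Figure D3:**
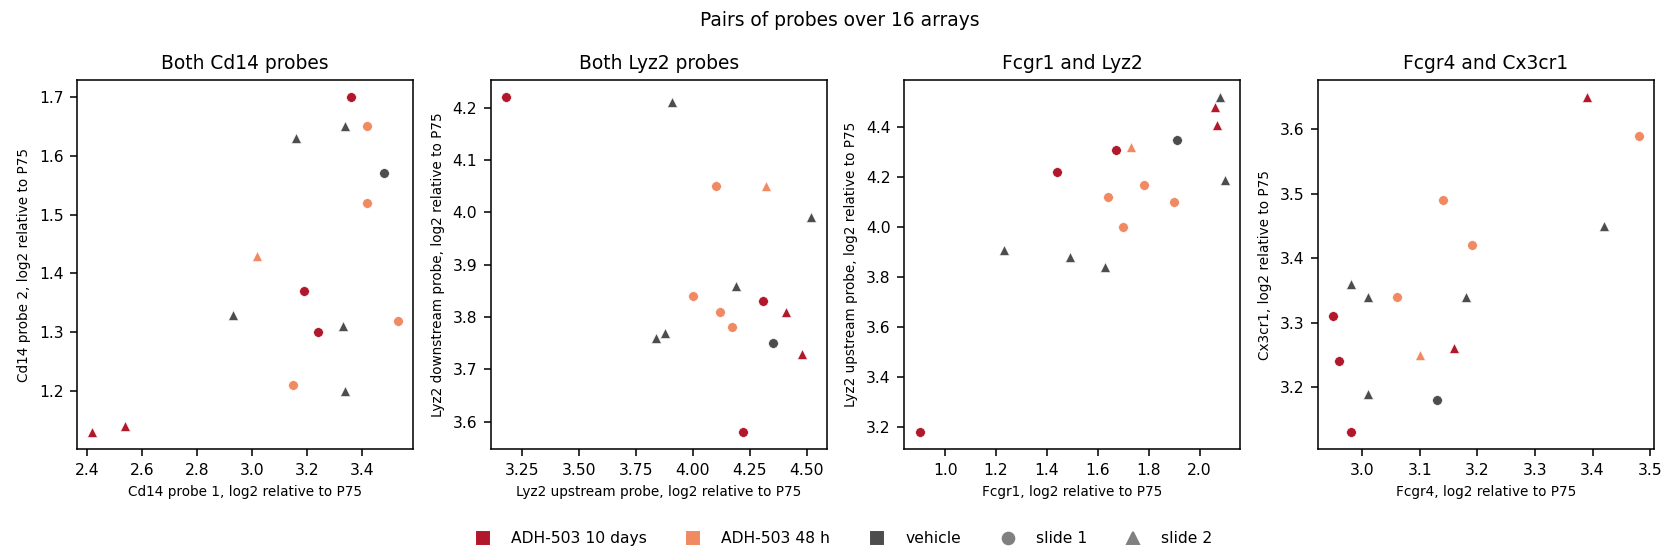
Each panel sets 2 probes against each other over the 16 arrays, in log2 signal relative to the array's 75th percentile (P75), coloured by group (10 days, 48 h, vehicle) with circles for slide 1 and triangles for slide 2. The 2 triangles of the 10 day group are lowest on both Cd14 probes, 1 array of the 10 day group stands apart on the upstream Lyz2 probe at 3.18, and Fcgr1 with Lyz2 and Fcgr4 with Cx3cr1 run along a diagonal.

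Lyz2 gave different pictures through its 2 probes. The upstream probe, printed above, stood at 3.18, 4.31, 4.22, 4.48 and 4.41 at 10 days and at 4.17, 4.12, 4.10, 4.0 and 4.32 at 48 h. In vehicle tumours it ran from 3.84 to 4.52 with a median of 4.05. Replicate 1 of the 10 day group lay far below all other arrays, and the remaining 4 lay above the vehicle median. The difference from vehicle was 0.0056 ± 0.21 at 10 days and 0.027 ± 0.21 at 48 h (SE, limma adjusted p = 1.0 for both). Without 10 day replicate 1 the first became 0.24, still not under 0.05 before adjustment, the largest move that leaving out 1 array made to any of the 10 genes at 10 days against vehicle.

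The downstream Lyz2 probe, at chr10:116714450-116714509 on mm9, stood at 4.22 on that same array, the highest of the 16, though a vehicle array was next at 4.21. Over the arrays the 2 Lyz2 probes correlated at r = -0.45 (Spearman's rho -0.26), whereas the pairs of probes of Cd68, Fcgr2b, Fcgr3, Cd14 and Cx3cr1 ran from r = 0.32 to 0.88. Lyz1, the neighbouring gene of a closely related lysozyme, has 1 probe, named after the values were seen. Its log2 signal correlated at r = 0.81 with the downstream Lyz2 probe and at -0.41 with the upstream one, over 16 arrays that share their scaling. The longest run of bases shared with the Lyz1 probe was 8 for the downstream and 6 for the upstream probe. The comparison was with that probe only, not with the Lyz1 transcript, so the runs do not show what a probe bound. Whether a Lyz2 probe also bound Lyz1 transcripts was not tested, and the level of Lyz2 is therefore uncertain.

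A measure meant to follow RNA quality, chosen after the values were seen, set upstream against downstream probes of 5667 other genes. The probes lay at least 500 bases apart on the genome, introns included. Whether the measure tracks RNA quality was not tested. The measure was upstream minus downstream log2 signal, so a lower value means relatively less upstream signal. Centred over arrays, it ran from -0.19 on 48 h replicate 3 to 0.12, and 10 day replicate 1 stood at 0.024, between those ends. Relative to the 75th percentile, the same array was the lowest of the 16 for Fcgr1, Fcgr4 and Lyz2 and the highest for Mertk. In the deposited values it kept these ranks for Fcgr1 (13.51), Lyz2 (15.8) and Mertk (16.03). Its Fcgr4 value there was 15.57, above the 15.56 of vehicle replicate 2. On the scale of the 75th percentile, vehicle replicate 4 was the lowest for Fcgr2b, Fcgr3, Cd68 and Aif1. In the authors' deposited values it was the lowest for none of these genes, and Aif1 stood at 16.51, where the vehicle mean was 16.46. Fcgr2b stood at 16.81 there, Fcgr3 at 17.1 and Cd68 at 16.43, while other arrays were at 16.61, 16.89 and 16.38. Vehicle replicate 4 also had the lowest mean of the 19 other macrophage genes relative to the 75th percentile, 3.36. Its value of the upstream-downstream measure, 0.12, was the highest, at the end with relatively the most upstream signal. The part of RNA quality in these low values was not tested.

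**Figure D4:**
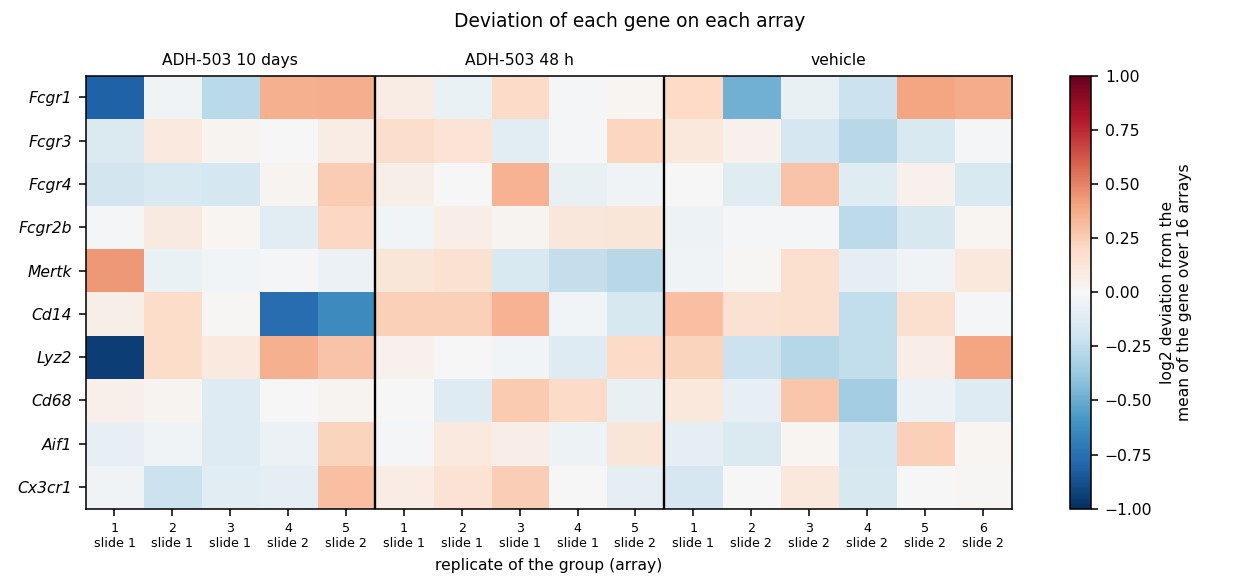
Deviation of each gene (rows) from its own mean over 16 arrays, in log2 units, for the arrays (columns) of the 10 day, 48 h and vehicle groups, with replicate and slide under each column. Blue cells stand at Lyz2 and Fcgr1 on 10 day replicate 1 and at Cd14 on 10 day replicates 4 and 5, and vehicle replicate 4 is below the mean for all 10 genes.

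Cd68, the lysosomal glycoprotein widely used to stain macrophages in tissue, stood at 4.04, 4.01, 3.86, 3.99 and 4.01 at 10 days, at 3.98, 3.86, 4.25, 4.18 and 3.91 at 48 h, and between 3.64 and 4.26 in vehicle tumours. The 10 day values all lay inside the vehicle range. The difference from vehicle was 0.037 ± 0.11 at 10 days (1.03-fold, 95% interval 0.867 to 1.21) and 0.089 ± 0.11 at 48 h (SE, 1.06-fold, 0.899 to 1.26), with a limma adjusted p of 1.0 for both. Its other 2 probes gave 0.11 and 0.11 at 10 days and 0.091 and 0.038 at 48 h.

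Aif1 averaged 3.87 ± 0.14 at 10 days, 3.94 ± 0.073 at 48 h and 3.87 ± 0.15 in vehicle tumours (SD). It had the smallest range of the 10 genes, 1.32-fold between its lowest and highest array, against 2.53-fold for Lyz2. Its differences from vehicle were 0.0061 ± 0.097 at 10 days and 0.067 ± 0.097 at 48 h (SE, limma adjusted p = 1.0 for both). Cx3cr1 averaged 3.32 ± 0.20 at 10 days, 3.42 ± 0.13 at 48 h and 3.31 ± 0.11 in vehicle tumours (SD). Its differences were 0.0038 ± 0.11 and 0.11 ± 0.11 (SE, limma adjusted p = 1.0 for both), and 4 of 5 arrays at 48 h lay above the vehicle mean. Its dimmer probe differed from vehicle by -0.15 at 10 days and by 0.13 at 48 h.

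In the authors' deposited quantile-normalized values, every array has the same median, 10.19, so subtracting it leaves each difference as it was. Of the 30 differences of the 10 genes, 4 had the other sign in that table, all of them small: Fcgr1 (-0.012) and Lyz2 (-0.017) at 48 h against vehicle, and Fcgr2b (0.037) and Lyz2 (0.035) at 10 days against 48 h. The largest in size was again Cd14, with -0.31 at 10 days against vehicle and -0.32 at 10 days against 48 h. None of the 30 had an adjusted p under 0.05 there.

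Some genes varied together from array to array. Of 45 pairs, 27 had a positive r, with a median of 0.16 and a range of -0.55 to 0.84. Fcgr1 and the upstream Lyz2 probe gave r = 0.84 (permutation p = 0.00016, Benjamini-Hochberg adjusted over 45 pairs 0.0072) and Spearman's rho of 0.73 (permutation p = 0.00166, adjusted 0.0747). Without the 2 arrays farthest from the median of Fcgr1, r was 0.64, and it was 0.85 within slide 1 and 0.82 within slide 2. Fcgr4 and Cx3cr1 gave r = 0.74 (permutation p = 0.00105, adjusted 0.0236) and rho of 0.63 (p = 0.0105, adjusted 0.137), with 0.67 without the 2 farthest arrays, 0.76 within slide 1 and 0.72 within slide 2. With group means subtracted these 2 pairs stood at 0.85 and 0.73. They were the 2 of 45 pairs under 0.05 after adjustment by r, and none was by rho.

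Fcgr2b and Fcgr3, the inhibitory and activating partners of similar ligand binding, correlated at r = 0.62 (permutation p = 0.00953, adjusted 0.134). Within slide 1 their r was -0.03 and within slide 2 it was 0.80, so the relation did not hold on both slides. Whether either probe also bound the other transcript was not measured. The lowest r, -0.55, was that of Mertk with Lyz2. It was 0.045 without the 2 arrays farthest from the median of Mertk, so it rested on them.

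Among 25953 genes above background on all 16 arrays, the closest to the mean of the 10 genes reached r = 0.90, an entry with no gene symbol, and the closest with a symbol among the first 5 was Vrk3, at 0.88. The closest to each gene were Bin3 for Cd68 (0.93), Tmem168 for Fcgr1 (0.94), Vps39 for Fcgr2b (0.86), Klhdc1 for Fcgr3 (0.88), Sema4d for Fcgr4 (0.92), Msantd1 for Mertk (0.84), Ppia for Aif1 (0.90) and Mad1l1 for Cx3cr1 (0.93). For Cd14 (0.88) and Lyz2 (0.96) they were transcripts with no gene symbol in the files. These are the highest of many values over 16 arrays and are descriptions only.

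No gene of the lists below passed the test at an adjusted p of 0.05 in any of the 3 comparisons. Of 13 genes of Fc receptor signalling, 6 were higher and 7 lower at 10 days than in vehicle (median log2 fold change -0.012), and likewise 6 and 7 at 48 h (median -0.00046). Btk, a kinase downstream of receptor engagement, averaged 0.73 ± 0.24 at 48 h and 0.48 ± 0.25 in vehicle tumours (SD), a difference of 0.25 ± 0.14 (SE, limma adjusted p = 1.0, exact permutation p = 0.134). Vav1, an exchange factor, differed by 0.064 ± 0.09 at 48 h, and Fgr, a Src family kinase, and Plcg2, a phospholipase, by -0.11 ± 0.13 and -0.077 ± 0.098 at 10 days (-0.015 and -0.0044 with the slide as a block). Of 11 other Fc receptors, 9 had positive differences at 48 h (median 0.18) and 6 at 10 days (median 0.02). Trim21, the cytosolic antibody receptor, differed by 0.36 ± 0.20 at 48 h and 0.27 ± 0.20 at 10 days, Fcer1a, the IgE receptor chain of mast cells, by -0.47 ± 0.26 at 10 days, and Fcamr by 0.56 ± 0.53 at 48 h.

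Of 9 genes of apoptotic cell uptake, 5 had positive differences at 10 days (median 0.054) and 5 at 48 h (median 0.075). Gas6, a ligand of Mertk, averaged 3.48 ± 0.23 at 10 days and 3.27 ± 0.15 in vehicle tumours (SD), a difference of 0.21 ± 0.14 (SE, limma adjusted p = 1.0, exact permutation p = 0.0996), and 0.12 with the slide as a block. Stab1, a scavenger receptor, differed by 0.14 ± 0.12 at 10 days and 0.19 ± 0.12 at 48 h (0.043 and 0.058 with the slide as a block), and Stab2 by -0.86 ± 0.55 at 48 h. Of 9 genes of the CD14 and TLR4 complex, 5 had positive differences at 10 days (median 0.032) and 7 at 48 h (median 0.093). Tlr4 differed by 0.25 ± 0.18 and its adaptor Ticam1 by 0.22 ± 0.14 at 10 days, on the side opposite to Cd14, and Ly86 and Lbp by 0.13 ± 0.10 and 0.30 ± 0.33 at 48 h, where Lbp was at 0.085 with the slide as a block.

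Of Cx3cl1, the ligand of Cx3cr1, and its sheddases Adam10 and Adam17, 1 of 3 had a positive difference at 10 days and 2 of 3 at 48 h. Adam10 differed by -0.075 ± 0.12 at 10 days and 0.16 ± 0.12 at 48 h, and Adam17 by -0.16 ± 0.12 and -0.068 ± 0.12. Of 11 genes of the phagocyte lysosome, 4 had positive differences at 10 days (median -0.015) and 9 at 48 h (median 0.021). Ctss, a cathepsin of antigen-presenting cells, differed by -0.097 ± 0.11 at 10 days, Ctsl by 0.14 ± 0.12 at 48 h, and Gpnmb by -0.30 ± 0.43 at 10 days and -0.40 ± 0.43 at 48 h. With the slide as a block these were -0.026 for Ctss, 0.023 for Ctsl, and -0.70 and -0.98 for Gpnmb.

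In the fit without the slide, the 19 other macrophage genes had positive differences in 17 cases at 10 days (median 0.089) and 18 at 48 h (median 0.14). Of all genes tested, 48.0% and 46.8% had positive differences. With 0 of the 19 passing, 0 and 1 were at an unadjusted limma p under 0.05. C1qa, a chain of complement C1q made by macrophages, averaged 4.65 ± 0.12 at 48 h and 4.42 ± 0.19 in vehicle tumours (SD), a difference of 0.23 ± 0.11 (SE, limma adjusted p = 1.0, exact permutation p = 0.0433). With the slide as a block it was 0.19. Cd163, a haemoglobin scavenger receptor, differed by 0.30 ± 0.16 at 48 h and 0.29 ± 0.16 at 10 days, and by 0.038 and 0.11 with the slide as a block. Vsig4, a complement receptor of tissue macrophages, averaged 1.80 ± 0.60 at 10 days and 1.03 ± 0.61 in vehicle tumours, a difference of 0.77 ± 0.40 (SE, limma adjusted p = 1.0, exact permutation p = 0.0649). The mean of these 19 genes ran from 3.59 to 3.80 at 10 days, 3.47 to 3.82 at 48 h and 3.36 to 3.67 in vehicle tumours, so the groups overlapped. On slide 1 the single vehicle array, at 3.67, lay inside the range of both ADH-503 groups. On slide 2 the vehicle arrays ran from 3.36 to 3.59, below the arrays at 10 days (3.64 and 3.71) and 48 h (3.67). The direction was thus not shared by both slides. The 19 genes were read on the same arrays, so their counts are not those of independent genes.

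Markers of other cells that carry Fc receptors or Cx3cr1 were also counted. At 48 h, 4 of 7 monocyte markers, 6 of 7 B cell markers and 3 of 6 NK cell markers had positive differences from vehicle, with medians of 0.044, 0.14 and 0.0083. At 10 days the counts were 1 of 7, 4 of 7 and 3 of 6, with medians of -0.027, 0.14 and -0.043. The mean of the B cell list, which bears on Fcgr2b, ran from 0.18 to 0.98 at 10 days, -0.37 to 2.23 at 48 h and -0.66 to 1.25 in vehicle tumours, with all 7 markers above background on every array. The mean of 9 acinar cell markers ran from 0.19 to 2.91 at 10 days, 2.29 to 2.91 at 48 h and 0.58 to 2.39 in vehicle tumours (median log2 fold change 1.25 at 48 h, with 0 passing and 7 at an unadjusted p under 0.05). The part of these cells in the values of the 10 genes was not tested.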

How the data were processed

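Tumour RNA was amplified as cDNA (WTA2), labelled with Cy5 and hybridised to 1-colour Agilent mouse arrays, per the labels' protocols. The authors read spot intensities from the scans with Agilent's Feature Extraction software, version 11.5.1.1 in the submitters' processing notes. The processed intensity was background-subtracted and detrended, dim spots were given substitute values, and arrays were not scaled to each other, per the file headers. A series table of log2 values, deposited by the authors, has sorted columns that differ by at most 0.0043, so it is quantile-normalized. Its columns correlate at r of 0.998 or more with the same arrays' log2 intensities.

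For the results here, control spots (3671 of 62976) and values marked as outliers were left out, spots of 1 probe were averaged, and log2 intensity was taken relative to each array's 75th percentile, which ran from 4953 to 6736. Of 56605 probes, 32994 were named by accession and 10733 by symbol through RefSeq, and 12878 kept the file's name. A gene was represented by its brightest probe and entered the test where the scanner files mark that probe as above background on 5 or more of the 16 arrays, which left 30587 genes. The number of arrays limits the precision. All 3 groups were fitted together in limma 3.58.1 (R 4.3.3, lmFit and robust eBayes) with Benjamini-Hochberg adjustment over all genes at 0.05. Exact 2-sided permutation tests went through every arrangement of the arrays of 2 groups, without regard to slide. Their smallest possible p was 0.00216 against vehicle and 0.00794 between times. Correlations used 100000 resamples, with their p-values adjusted in scipy 1.17.1. The fit was checked on simulated data.

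Besides the 10 genes, the text names from each pathway list the 2 genes with the smallest unadjusted p in each comparison with vehicle, and, for likeness, the genes with the highest Pearson r over the 16 arrays. Cell type lists are given as counts and medians. The 10 genes and the lists were chosen with earlier results of these data known. The vehicle samples have no time label, so time on treatment and tumour age cannot be told apart.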

Additional observations from a re-analysis of the deposited data

Results flagged for a closer look

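In 6 of 51 sets of 5 or 6 arrays, 1 array stood apart from the rest of its group by Dixon's test. For independent sets, chance gives about 1 in 20 (5%). These sets are not independent, since some are probes of the same gene and all use the same arrays. The share over all probes was not computed, so no excess is read from the count. Of the 6, 2 were on replicate 1 of the 10 day group. There Lyz2 (upstream probe) was low at 3.18, with the next array at 4.22, and Mertk was high at 3.42, with the next at 2.97. In the same group, Cd68 (brightest probe) was low on replicate 3 at 3.86, with the next at 3.99, and Aif1 was high on replicate 5 at 4.11, with the next at 3.86. In the vehicle group, the second Fcgr3 probe was low on replicate 4 at 2.34, with the next at 2.90, and the dimmest Cd68 probe was high on replicate 3 at 2.69, with the next at 2.16. All values are log2 signal relative to the array's 75th percentile, and their causes were not tested.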

How the results depend on the processing

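No paired analysis was possible because no ID number in the titles recurs between groups, except that of vehicle replicate 2 and 48 h replicate 5. The labels give no replicate numbers, and those used here follow the order of the samples. None of the 10 genes passed an adjusted p of 0.05 under any of the 30 alternatives run. Over all genes, 1 was called without the filter on dim probes at 10 days and at 48 h against vehicle (4930448H16Rik, chosen after the values were seen, log2 fold change -2.73 and -2.75), and leaving out 1 array gave 0 to 1 in each comparison. Those genes were A630052C17Rik at 10 days against vehicle (without 10 day replicate 4), and BE945716 (without vehicle replicate 1) and Dnaaf4 (without vehicle replicate 5) at 48 h against vehicle and at 10 days against 48 h. Genes at an unadjusted p under 0.05 numbered 2404, 1403 and 1774 within slide 1 and 2746, 2075 and 1817 within slide 2, for 10 days against vehicle, 48 h against vehicle and 10 days against 48 h. Leaving out 1 array moved them over 821 to 1612, 543 to 1294 and 910 to 1398, and the median of the 10 genes over -0.06 to 0.029, 0.033 to 0.11 and -0.11 to -0.038. Within slides that median was -0.11 (slide 1) and 0.13 (slide 2) at 10 days against vehicle, -0.0051 and 0.0052 at 48 h against vehicle, and -0.11 and 0.11 at 10 days against 48 h. Of the 30 differences of the 10 genes, 12 had another sign within slide 2, 9 within slide 1, 8 after normexp and quantile normalization, 5 with the slide as a random block, 4 in the deposited table, 3 with the slide as a fixed block and 3 with the mean of all probes. For scaling by the array median, other filters and other eBayes settings the number was 0. Without the 2 arrays that share an ID number, 5 changed sign. The difference of Cd14 ran from -0.42 to -0.18 at 10 days against vehicle and from -0.46 to -0.23 at 10 days against 48 h over arrays left out, with 1 and 3 of those under an unadjusted p of 0.05. Slide 1 has 1 vehicle array and slide 2 has 1 array at 48 h, so a lone array is assumed to vary like the others.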

Other observations

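Lists of cells not described above also held no gene past an adjusted p of 0.05 (limma, all genes). Of 6 erythroid genes, 6 were lower at 10 days than in vehicle tumours (median log2 fold change -1.50, 3 at an unadjusted p under 0.05) and 6 were lower at 48 h (median -1.24, 3 under 0.05). The list mean ran from -3.63 to -2.43 at 10 days, -3.65 to -1.59 at 48 h and -3.01 to 0.74 in vehicle tumours, so the groups overlapped. The 8 epithelium markers were all lower at 10 days than in vehicle (median -0.57), and 5 of 8 were higher at 48 h (median 0.044). Of 6 mast cell markers, 6 were lower at 10 days (median -0.39) and 4 were higher at 48 h (median 0.18). Of 6 T cell markers, 1 was higher at 10 days (median -0.19) and 4 at 48 h (median 0.23). Of 8 dendritic cell markers, 3 were higher at 10 days (median -0.024) and 1 at 48 h (median -0.12). The 6 endothelial markers tested were all lower at both times (medians -0.32 and -0.63), though only 3 were above background on every array and Tek was on none. Of 7 fibroblast markers, 2 were higher at 10 days (median -0.064) and 1 at 48 h (median -0.36). Both comparisons share the vehicle arrays.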
